A study of Homo sapiens with 6 samples.

Results

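The genes described are the zinc finger genes of chromosome 19, taken as every gene that lies on that chromosome and whose symbol is ZNF followed by a number, with or without a final letter. The rule gave 263 genes of the 62696 that were counted. It used no measured value, except that for 2 symbols with a second identifier the one with more counts was kept. They were measured by RNA-Seq in DMS53, an established small cell lung carcinoma (SCLC) line with neuroendocrine features, in 3 control and 3 OC2-OE libraries. Control cells carried the empty lentiviral vector pLenti-C-mGFP-P2A-Puro. OC2-OE cells carried a lentiviral vector for constitutive expression of mGFP-tagged human OC2, the transcription factor encoded by ONECUT2. Cells of both groups were transduced and selected with puromycin, and the labels name no single-cell clone.

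Zinc finger genes of this kind encode transcription factors with arrays of C2H2 fingers, each of which can contact a few bases of DNA. Many carry a KRAB domain, which recruits TRIM28 and through it the histone methyltransferase SETDB1 and HP1 proteins, so that chromatin at the bound site is silenced. Their best known targets are transposable elements. The genes multiplied by tandem duplication, and on chromosome 19 most of them stand in clusters of close relatives.

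A coding sequence of GENCODE release 29 was found for 246 of the 263 members, with a median of 13 fingers and a range of 0 to 39. A KRAB pattern, taken as leucine and tyrosine, any 2 residues, then valine and methionine near the start of the protein, was present in 195 of the 246. The symbols of 16 members end in P, the mark of a pseudogene.

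Libraries held 16533284 to 19099337 counts, and the members took 0.400% to 0.414% of them. ONECUT2 had 394 to 465 counts per control library and 68853 to 74031 per OC2-OE library, endogenous and introduced transcripts together. Neuroendocrine markers were present, with 8 of 8 tested and a summed level of 2096 to 2133 CPM (the counts scaled to equal TMM-normalized library sizes) in control and 3139 to 3178 CPM in OC2-OE. Of these markers 2 rose and 5 fell, among the latter NCAM1 and INSM1, where 27.8% of all tested genes were higher and 28.7% lower. The risers were CHGA, whose mean went from 72.2 to 150 CPM, and SCG2, whose mean went from 801 to 2273 CPM, more than the rise of the sum. The 4 immune markers summed to at most 0.346 CPM in any library. The 3 endothelial markers summed to 2.99 to 3.96 CPM in control and 2.36 to 3.35 CPM in OC2-OE. Of these CDH5 fell from 1.01 to 0.0549 CPM (log2 fold change -4.03) and PECAM1 did not pass the test. VWF, too low to be tested, went the other way, from 0.0199 to 0.310 CPM. It had 0, 1 and 0 counts in control and 6, 5 and 6 in OC2-OE. The 5 fibroblast markers summed to 20.9 to 23.7 CPM in control and 27.4 to 30.9 CPM in OC2-OE, nearly all of it COL1A1, while COL3A1, DCN and LUM were near 0. In such bulk samples, fewer cells of a type and less RNA per cell cannot be told apart.

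Promoters are shown first because they hold a word common to every promoter examined of the cluster with more falls than any other. Each run below is the 300 bases around a RefSeq start site on GRCh38.p14, most of them before it, read 5′ to 3′ on the strand of the gene, with the word CCAATCA in capitals. ZNF257 had the largest fall of the tested members, ZNF714 is a strong faller with 2 copies of the word, ZNF493 is the riser of the same cluster and ZNF91 is a neighbour that did not pass the test. ZNF627 belongs to another cluster and rose. Its RefSeq start site lies far inside the gene as GENCODE draws it, and those of ZNF257, ZNF714 and ZNF493 lie a short way inside theirs.
ZNF257, chr19:22052234-22052533, plus strand: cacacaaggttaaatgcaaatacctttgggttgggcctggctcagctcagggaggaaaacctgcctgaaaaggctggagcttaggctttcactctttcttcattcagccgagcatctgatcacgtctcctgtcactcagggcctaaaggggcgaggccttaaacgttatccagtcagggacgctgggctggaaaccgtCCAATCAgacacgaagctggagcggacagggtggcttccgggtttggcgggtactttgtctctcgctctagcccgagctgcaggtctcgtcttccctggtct
ZNF714, chr19:21081953-21082252, plus strand: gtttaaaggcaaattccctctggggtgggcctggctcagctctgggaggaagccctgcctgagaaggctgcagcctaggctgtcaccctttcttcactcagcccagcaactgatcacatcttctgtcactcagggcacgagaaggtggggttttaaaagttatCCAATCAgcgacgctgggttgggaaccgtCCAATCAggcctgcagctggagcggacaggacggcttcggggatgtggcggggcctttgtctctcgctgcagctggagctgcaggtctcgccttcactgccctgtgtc
ZNF493, chr19:21396883-21397182, plus strand: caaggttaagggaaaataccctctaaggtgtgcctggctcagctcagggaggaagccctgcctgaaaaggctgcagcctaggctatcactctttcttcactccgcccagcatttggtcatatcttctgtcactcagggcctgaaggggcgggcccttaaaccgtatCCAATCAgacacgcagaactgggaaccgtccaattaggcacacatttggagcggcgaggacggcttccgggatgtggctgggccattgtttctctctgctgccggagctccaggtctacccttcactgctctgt
ZNF91, chr19:23395422-23395721, minus strand: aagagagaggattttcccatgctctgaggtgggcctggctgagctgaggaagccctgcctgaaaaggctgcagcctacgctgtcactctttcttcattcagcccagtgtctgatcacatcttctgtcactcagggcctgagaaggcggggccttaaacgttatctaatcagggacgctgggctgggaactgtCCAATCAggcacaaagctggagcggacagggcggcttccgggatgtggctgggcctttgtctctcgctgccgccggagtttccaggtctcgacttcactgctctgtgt
ZNF627, chr19:11597233-11597532, plus strand: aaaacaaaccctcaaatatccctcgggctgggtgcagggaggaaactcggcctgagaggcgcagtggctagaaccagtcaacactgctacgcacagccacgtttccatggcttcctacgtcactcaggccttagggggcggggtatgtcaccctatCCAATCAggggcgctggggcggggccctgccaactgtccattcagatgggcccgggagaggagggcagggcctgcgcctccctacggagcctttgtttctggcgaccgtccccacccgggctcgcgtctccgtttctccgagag

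The word CCAATCA extends CCAAT, the core read by the factor NF-Y. It was searched on both strands and was chosen after the sequences had been seen. It was present in 63 of the 216 members with a RefSeq promoter, 29.2%, and in 1987 of all 27305 RefSeq promoters of this length, 7.28%. In the cluster from ZNF101 to ZNF254 it was present in 29 of 29 promoters, always on the strand of the gene, and in 16 of them more than once. The copy nearest the start site began between positions -60 and -50 in 24 of the 29, with the start site as position 0. A match is a description of the sequence and not a bound site.

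OC2 recognizes sequences with the core ATCGAT or a relative of it, and neither overlaps the word above in full. On either strand ATCGAT was found in 1 of the 216 member promoters (0.46%) and in 0.78% of all RefSeq promoters. The relative, ATCAAT on either strand, was found in 4 of 216 (1.85%) and in 6.4% of all promoters. None of the 29 promoters of the ZNF101 to ZNF254 cluster held either core, which says only that these letters are not in this window.

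Most members were expressed at low to moderate level. Of the 263, 226 had enough counts to be tested, with a median of 1394 counts over the 6 libraries. Per length, their level had a median of 2.34 FPKM (CPM per kilobase of exon) and ran from 0.100 to 61.6 FPKM. The other 37 had at most 82 counts in all, and 16 of them had 0. Some with 0 counts lie almost wholly under exons of another gene on their strand, such as ZNF177 (90.6% of exon length), ZNF788P (96.9%) and ZNF826P (99.8%). Reads over several genes were not counted, so these genes cannot be called silent. Others with 0 counts, such as ZNF558 and ZNF560, have no such overlap.

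OC2 expression was accompanied by small shifts in both directions. At an adjusted p under 0.001 (quasi-likelihood test of edgeR, Benjamini-Hochberg over all genes), 79 of the 226 tested members changed, or 35.0%. Among all 17307 tested genes the share was 56.5%. In OC2-OE 31 members (13.7%) were higher, against 27.8% of all tested genes, and 48 (21.2%) were lower, against 28.7%. Values of the groups did not overlap for 128 members (56.6%), compared with 73.2% of all tested genes.

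The changes were also narrow in size. The median log2 fold change of tested members was -0.02, with quartiles of -0.29 and 0.19, and its sign turned with library size only (0.03) or upper-quartile normalization (0.03). For all tested genes the median was 0.01. A change of at least 2-fold was seen in 5 members, or 2.21%, and in 18.6% of all tested genes. Genes of like level were compared too. Between the members' own level quartiles (2.77 and 4.53 on the log2 CPM scale), 58.0% of all tested genes and 33.9% of members were called.

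Zinc finger genes of the same naming on other chromosomes had 240 tested genes, of which 63 were higher and 49 lower (46.7% called, median log2 fold change 0.03). Other genes of chromosome 19 had 259 higher and 257 lower of 918 tested (56.2%, median 0.03). The plot of shares called sets these groups beside each other.

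**Figure D1:**
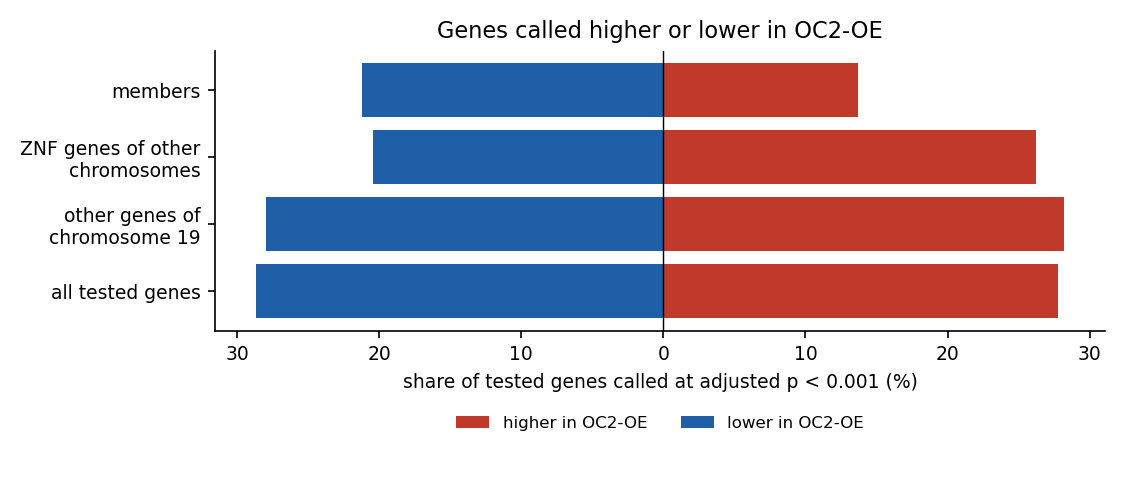
Share of tested genes (%) called at adjusted p under 0.001, higher in OC2-OE to the right and lower to the left, in 4 sets of genes. Members had 13.7% higher and 21.2% lower, and all tested genes 27.8% and 28.7%.

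Along the chromosome the members fell into 9 clusters of at least 5 genes, when a gap of over 1.0 Mb was taken to start a new cluster, and 12 members stood outside them. Clusters are named by their first and last member. The direction of change differed from cluster to cluster, as the plot of fold changes in chromosomal order shows.

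**Figure D2:**
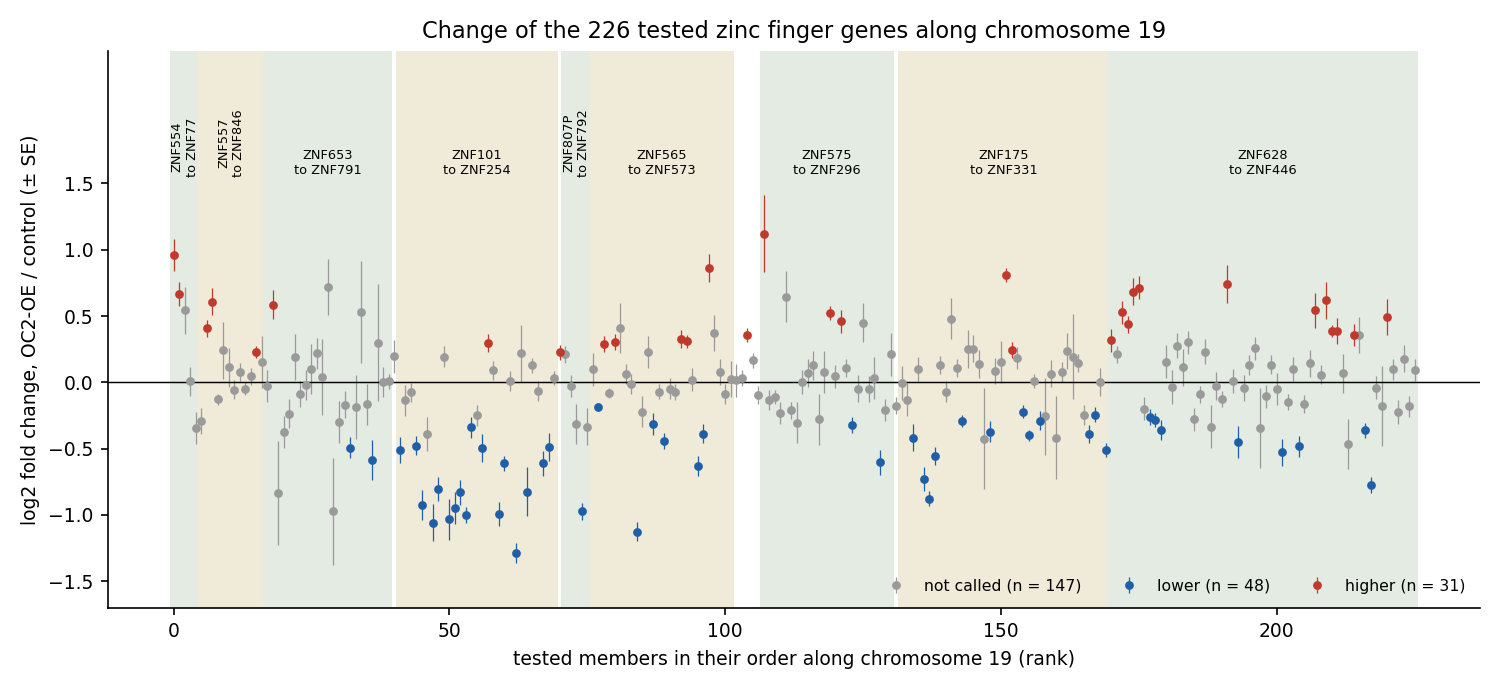
Log2 fold change of OC2-OE over control (points, with the standard error as bars) for the 226 tested members in their order along chromosome 19, with the 9 clusters shaded. Red points are called higher, blue points lower and grey points not called. In the cluster from ZNF101 to ZNF254, 17 of 29 points are blue and 1 is red.

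The cluster from ZNF101 to ZNF254 held 17 of the 48 falls, more than any other cluster. It spans chr19:19668796-24129968 (GRCh38) on the short arm next to the centromere, with 42 members of which 29 were tested. In OC2-OE 17 were lower (58.6%, against 28.7% of all tested genes) and 1 was higher, with a median log2 fold change of -0.49. Their summed level was 537, 521 and 523 CPM in control and 413, 408 and 406 CPM in OC2-OE, 22.4% less on average (527 ± 8.94 against 409 ± 3.38 CPM, SD, n = 3). In this sum all OC2-OE libraries lay below all control libraries. The plot of values by library shows the single genes, of which some overlap between the groups.

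**Figure D3:**
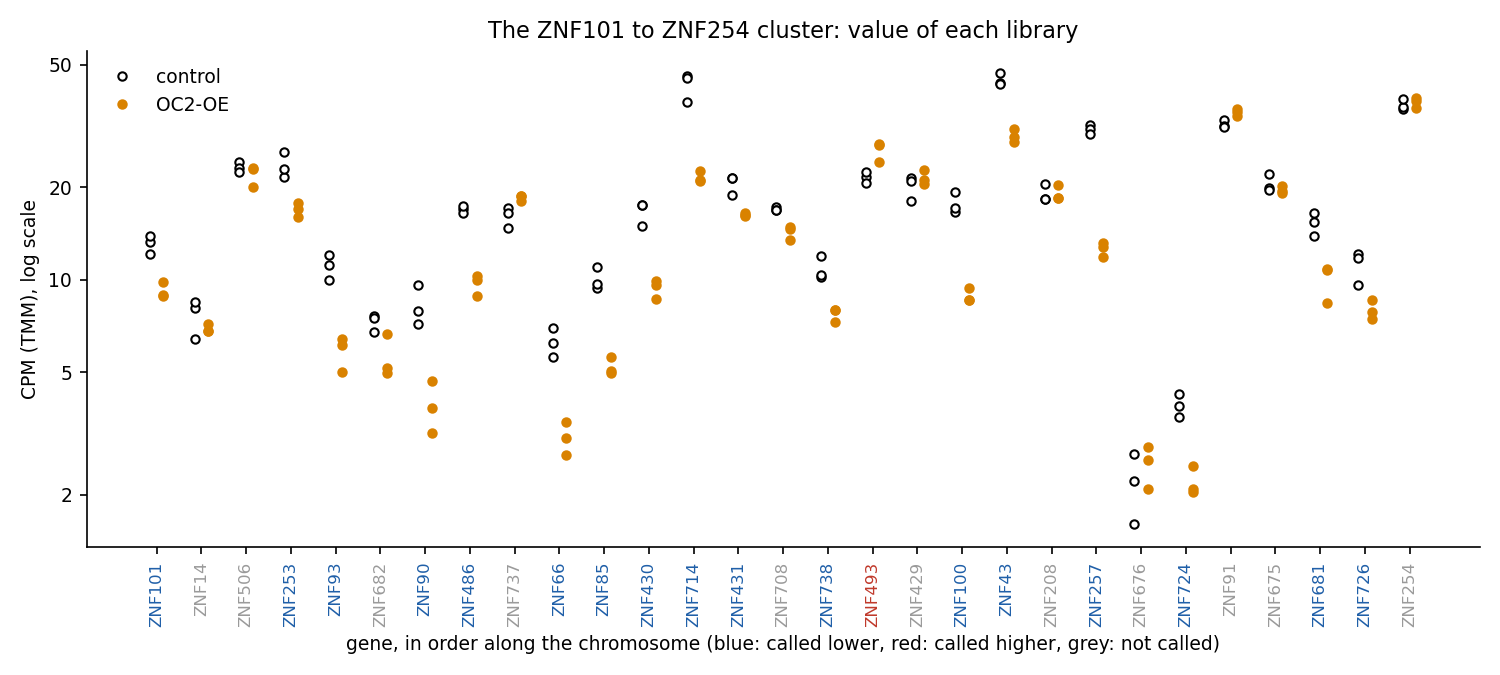
Level in CPM (log scale) of the 29 tested members from ZNF101 to ZNF254 in each control library (open) and OC2-OE library (filled), with genes in chromosomal order and their names coloured by call. The groups stand apart for ZNF257, ZNF714 and ZNF100 and overlap for ZNF208 and ZNF254.

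ZNF257, with 12 fingers and a KRAB pattern, had the largest fall of the tested members. Its level was 31.8, 30.9 and 29.6 CPM in control and 13.2, 11.8 and 12.8 CPM in OC2-OE. The control libraries were all more than double the OC2-OE libraries, and the log2 fold change was -1.29 (standard error, SE, 0.07, adjusted p = 1.76e-33 by edgeR).

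ZNF714 stood higher and also fell. It had 45.9, 45.2 and 37.8 CPM in control and 21.0, 22.6 and 21.1 CPM in OC2-OE, with a log2 fold change of -0.999 (SE 0.06, adjusted p = 6.17e-28 by edgeR). ZNF100 had 16.6, 17.2 and 19.3 CPM in control and 9.39, 8.60 and 8.62 CPM in OC2-OE, with a log2 fold change of -0.99 (SE 0.09, adjusted p = 1.21e-18 by edgeR). Neither gene overlapped between the groups. The KRAB pattern was found in ZNF100 and not in the release 29 coding sequence of ZNF714.

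Less abundant members also fell. ZNF90 had 7.17, 7.89 and 9.59 CPM in control and 4.70, 3.17 and 3.84 CPM in OC2-OE, with a log2 fold change of -1.06 (SE 0.14, adjusted p = 2.21e-11 by edgeR). ZNF66 had 6.96, 5.62 and 6.21 CPM in control and 3.44, 3.06 and 2.69 CPM in OC2-OE, with a log2 fold change of -1.03 (SE 0.15, adjusted p = 2.24e-09 by edgeR). The values rest on 422 and 215 counts for ZNF90 and on 325 and 168 counts for ZNF66, control and OC2-OE in that order. In both genes the lowest control library lay above the highest OC2-OE library.

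ZNF93, a repressor of LINE-1 retrotransposons, had 12, 9.98 and 11.2 CPM in control and 5.01, 6.41 and 6.15 CPM in OC2-OE, with a log2 fold change of -0.92 (SE 0.11, adjusted p = 2.94e-12 by edgeR). ZNF85 had 9.42, 11.0 and 9.72 CPM in control and 4.96, 5.60 and 5.05 CPM in OC2-OE, with a log2 fold change of -0.95 (SE 0.12, adjusted p = 4.63e-12 by edgeR). Every control library was higher than every OC2-OE library in these genes too. The remaining members that fell were ZNF101, ZNF253, ZNF486, ZNF430, ZNF431, ZNF738, ZNF43, ZNF724, ZNF681 and ZNF726, with log2 fold changes from -0.83 (ZNF430) to -0.34 (ZNF431). Of the 75-base words of ZNF724, 42.8% also occur in transcripts of another gene and 44.7% of its exon length lies under exons of another gene on its strand, so its value is uncertain. For ZNF738 18.3% of the exon length lies under such exons.

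Some neighbours of these genes did not pass the test, and those described here were picked after their values were seen. ZNF91, a large gene of 32 fingers that represses SVA retrotransposons, had 33.1, 31.6 and 31.4 CPM in control and 35.0, 34.0 and 35.9 CPM in OC2-OE, with a log2 fold change of 0.13 (SE 0.06, adjusted p = 0.0411 by edgeR). ZNF254 had 35.9, 36.3 and 38.7 CPM in control and 38.9, 36.2 and 38.1 CPM in OC2-OE (log2 fold change 0.03). ZNF208, with 36 fingers, had 18.3, 18.3 and 20.4 CPM in control and 20.4, 18.4 and 18.4 CPM in OC2-OE (log2 fold change 0.01). The 95% interval of the log2 fold change was 0.01 to 0.24 for ZNF91, -0.07 to 0.14 for ZNF254 and -0.14 to 0.16 for ZNF208, so a fall of the size seen in ZNF257 lies outside all of them. For ZNF208, 20.45% of the exon length lies under exons of another gene on its strand, so its value is less certain. ZNF14, ZNF506, ZNF682, ZNF737, ZNF708, ZNF429, ZNF676 and ZNF675 did not pass the test either, with log2 fold changes from -0.39 to 0.22.

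ZNF493 was the member of this cluster called higher. It had 21.6, 20.6 and 22.4 CPM in control and 27.4, 24.1 and 27.5 CPM in OC2-OE, with a log2 fold change of 0.29 (SE 0.07, adjusted p = 6.22e-05 by edgeR). The groups did not overlap, but the call was lost without control replicate 2 (adjusted p = 0.00152), without OC2-OE replicate 1 (adjusted p = 0.00151) and without OC2-OE replicate 3 (adjusted p = 0.00144 by edgeR), and with the Wald test of DESeq2 (adjusted p = 0.00185).

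The longest run of consecutive tested members with the same call was in this cluster, from ZNF66 through ZNF85, ZNF430 and ZNF714 to ZNF431, 5 genes with log2 fold changes from -1.03 to -0.34. By strand, a split looked at after the values had been seen, 13 of the 16 tested members on the plus strand were lower (81.2%) and 4 of the 13 on the minus strand (30.8%), where all tested genes had 28.7%. Outside the cluster 18 of 111 members on the plus strand (16.2%) and 13 of 86 on the minus strand (15.1%) were lower.

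A stretch of 9 consecutive members further along, from ZNF729 to ZNF730 at chr19:22286441-23147221, was nearly silent. Together they had 16 counts over the 6 libraries, and 5 of them had 0. ZNF725P, a pseudogene between ZNF91 and ZNF675 that was not tested, had 0 counts in each control library and 3, 2 and 11 in OC2-OE, so it was at least 5.22-fold higher in OC2-OE when 3 counts over the control group are taken as the floor. It was picked after its values were seen. Most of its counts came from OC2-OE replicate 3, so the bound leans on that library and would be lower without it.

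The transcripts of this cluster were low in GC content, with a median of 37.6% over the 29 tested members, against 42.6% for the other members and 48.1% for all tested genes. Between the cluster's GC quartiles of 36.5% and 39.7% stood 1751 tested genes of the whole table. Of these 487 were higher (27.8%) and 541 lower (30.9%) with a median log2 fold change of -0.01. Members outside the cluster within these limits numbered 32, of which 6 were higher (18.75%) and 7 lower (21.9%) with a median of -0.03. Genes of other kinds inside the cluster's span included 17 tested, 2 higher (11.8%) and 2 lower (11.8%) with a median of -0.30. Members outside the cluster numbered 197 tested, 30 higher (15.2%) and 31 lower (15.7%) with a median of 0.01. Of all tested genes 27.8% were higher and 28.7% lower.

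The promoter word was shared by members that fell and members that did not. Of the 25 tested members of the cluster with a RefSeq promoter, all with CCAATCA, 15 were lower (60%) and 1 was higher (4%), against 28.7% and 27.8% of all tested genes. Of the 31 tested members with the word outside the cluster, 2 were lower (6.45%) and 4 higher (12.9%), with a median log2 fold change of 0.00. In the cluster from ZNF653 to ZNF791, where 22 of 24 promoters held it, 19 of these members were tested and 2 were lower (10.5%) and 1 higher (5.26%). Promoters from ZNF101 to ZNF254 had a median of 10 CpG dinucleotides in 300 bases, against 22 in the other members and 14 in all RefSeq promoters.

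The plot of summed levels shows the clusters side by side. The cluster from ZNF175 to ZNF331 (chr19:51571283-53580269) had 38 tested members, 12 lower (31.6%, against 28.7% of all tested genes) and 2 higher (5.26%, against 27.8%) with a median log2 fold change of 0.00, and its summed level was 836, 793 and 819 CPM in control and 737, 740 and 733 CPM in OC2-OE. The cluster from ZNF807P to ZNF792 had 5 tested members, of which ZNF30 was called. Its sum was 18.1% lower on average, from 84.4 to 69.1 CPM, and ZNF30 alone went from 34.0 to 17.3 CPM, so the fall of the sum was that of this gene. In the cluster from ZNF554 to ZNF77 (chr19:2819868-2944971) 2 of 5 were higher (40.0%) and none lower, and its sum was 30.5% higher, from 35.3 to 46.0 CPM, no more than the rises of ZNF554 and ZNF555 together.

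**Figure D4:**
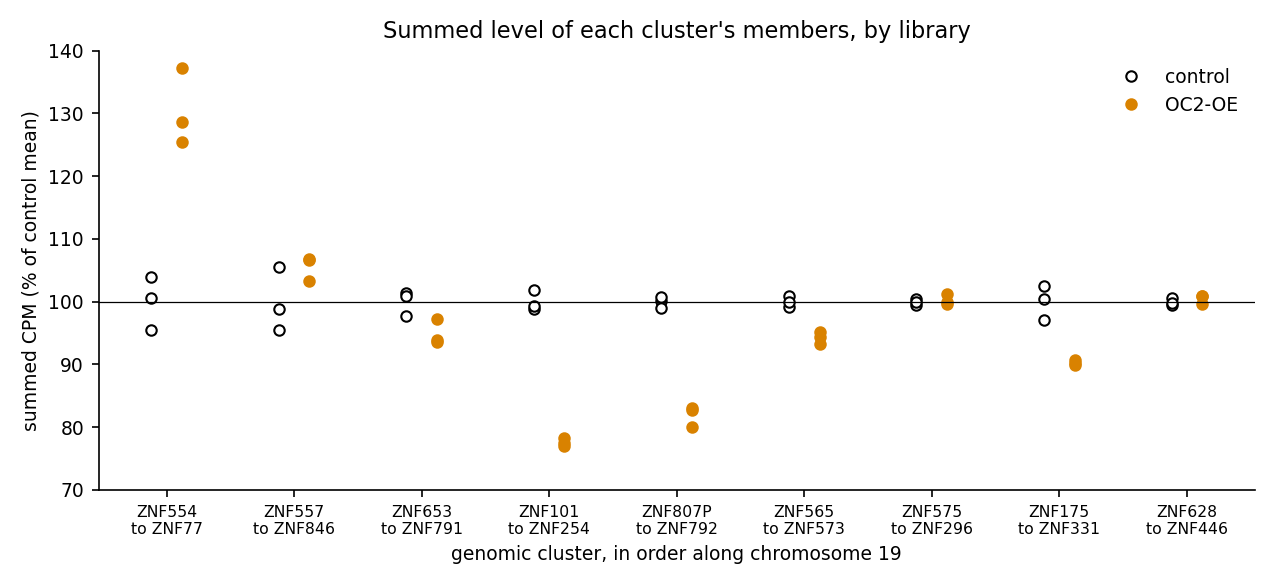
Summed CPM of the members of each of the 9 clusters in each library, as a percent of the control mean, with control libraries open and OC2-OE libraries filled. The sum was 22.4% lower in OC2-OE from ZNF101 to ZNF254 and 30.5% higher from ZNF554 to ZNF77.

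In the ZNF175 to ZNF331 cluster the neighbours ZNF615, ZNF614 and ZNF432 fell as a run. ZNF614 had 50.4, 50.2 and 52.1 CPM in control and 28.8, 27.5 and 26.7 CPM in OC2-OE, with a log2 fold change of -0.88 (SE 0.05, adjusted p = 2.69e-30 by edgeR). The log2 fold change was -0.73 for ZNF615 and -0.55 for ZNF432. Known for their biology and picked after their values were seen were the imprinted gene ZNF331, which fell from 50.5 ± 1.83 to 35.4 ± 3.35 CPM (SD, n = 3, log2 fold change -0.51), and ZNF808, a gene needed for pancreas formation, which fell from 18.3 ± 0.745 to 14.2 ± 0.896 CPM (SD, n = 3, log2 fold change -0.37). For ZNF808, 16.5% of the 75-base words also occur in transcripts of another gene.

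The 2 members of that cluster called higher were ZNF611 (log2 fold change 0.24, adjusted p = 0.000194 by edgeR) and ZNF83, a gene of 14 fingers without the KRAB pattern. ZNF83 had 29.2, 29.4 and 31.9 CPM in control and 50.4, 53.3 and 54.7 CPM in OC2-OE, and the groups stood far apart (log2 fold change 0.81, standard error 0.05, adjusted p = 4.98e-28 by edgeR).

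At the start of the chromosome, ZNF554 and its neighbour ZNF555 rose. ZNF554 had 5.57, 4.18 and 6.03 CPM in control and 10.9, 10.6 and 9.22 CPM in OC2-OE, with a log2 fold change of 0.96 (SE 0.12, adjusted p = 5.35e-12 by edgeR). ZNF555 had 9.85, 10.6 and 11.4 CPM in control and 16.3, 15.4 and 18.6 CPM in OC2-OE, with a log2 fold change of 0.66 (SE 0.09, adjusted p = 8.56e-11 by edgeR). Neither overlapped between the groups. Of the other members of the cluster, ZNF556 (log2 fold change 0.54), ZNF57 (0.01) and ZNF77 (-0.34) did not pass the test.

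The cluster from ZNF565 to ZNF573 (chr19:36182276-37817300) held a strong fall and a strong rise with no shift of its median, which was 0.00 with 5 of 26 tested members higher (19.2%) and 6 lower (23.1%), below the 27.8% and 28.7% of all tested genes. ZNF850, with 30 fingers, had 32.2, 29.8 and 30.4 CPM in control and 13.5, 14.7 and 14.2 CPM in OC2-OE, with a log2 fold change of -1.13 (SE 0.07, adjusted p = 9.90e-30 by edgeR). ZNF793 had 6.10, 6.45 and 7.26 CPM in control and 11.2, 12.1 and 12.7 CPM in OC2-OE, with a log2 fold change of 0.86 (SE 0.11, adjusted p = 3.97e-12 by edgeR). In ZNF850 the control libraries were more than double the OC2-OE libraries, and ZNF793 showed the opposite order without overlap.

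This cluster also held the most abundant member, ZNF146, whose protein consists almost entirely of fingers. At 65.5 FPKM in control and 57.7 FPKM in OC2-OE it stood above ZNF428 (28.9 and 26.7 FPKM), ZNF260 (15.1 and 14.3 FPKM), ZNF787 (14.9 and 12.3 FPKM) and ZNF468 (14.8 and 11.2 FPKM). These were the members next in level per length by the mean of both groups. In OC2-OE alone ZNF358, at 14.6 FPKM, stood above ZNF260, ZNF787 and ZNF468. ZNF146 fell slightly, from 278, 267 and 269 CPM to 239, 242 and 236 CPM (log2 fold change -0.18, standard error 0.03, adjusted p = 3.32e-10 by edgeR). ZNF428 (adjusted p = 0.0539) and ZNF260 (adjusted p = 0.0618 by edgeR) did not pass the test. ZNF468 fell, with a log2 fold change of -0.40, but 53.2% of its 75-base words also occur in transcripts of another gene, mostly ZNF320, so reads could not always be told apart.

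The call of ZNF787, which went from 48.0, 54.6 and 61.7 CPM to 43.6, 45.9 and 46.8 CPM (log2 fold change -0.26, adjusted p = 0.000195 by edgeR), did not hold when most single libraries were left out. The log2 fold change was -0.17 without control replicate 3 and -0.36 without control replicate 1, where the call held (adjusted p = 9.6e-10 by edgeR). It was lost without control replicate 2 (adjusted p = 0.0127) and control replicate 3 (0.00359), and without OC2-OE replicate 1 (0.00864), 2 (0.00182) or 3 (0.00363 by edgeR). Library size only (adjusted p = 0.00432 by edgeR), upper-quartile normalization (0.00275), limma voom (0.00225), DESeq2 (0.0234) and a minimum of 10 counts in every library (0.00104) ended the call as well.

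The last and largest cluster, from ZNF628 to ZNF446 (chr19:55476617-58481230), had 56 tested members, of which 12 were higher (21.4%, against 27.8% of all tested genes) and 8 lower (14.3%, against 28.7%), with a median log2 fold change of 0.06. A run of 4 neighbours, ZNF524, ZNF865, ZNF784 and ZNF580, was higher, with log2 fold changes from 0.44 to 0.71, and none of them carried the KRAB pattern. ZNF580, a small protein of 3 fingers, had 13.3, 11.6 and 10.4 CPM in control and 18.4, 19.2 and 20.6 CPM in OC2-OE (log2 fold change 0.71, standard error 0.09, adjusted p = 4.89e-13 by edgeR). ZNF784 had 7.39, 8.73 and 8.12 CPM in control and 14, 12.2 and 12.5 CPM in OC2-OE (log2 fold change 0.68, standard error 0.10, adjusted p = 1.57e-09 by edgeR). In both the lowest OC2-OE library stood above the highest control library.

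Further along the same cluster ZNF814, ZNF587 and ZNF417 formed another run of rises, with log2 fold changes of 0.62, 0.39 and 0.39. The call of ZNF814 was lost without control replicate 3 (adjusted p = 0.00145 by edgeR) and with DESeq2 (adjusted p = 0.00112). ZNF417 shares 30.4% of its 75-base words with other genes, mostly ZNF587. ZNF547 rose from 3.73 ± 0.252 to 6.24 ± 0.547 CPM (SD, n = 3, log2 fold change 0.74).

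The largest fall of the cluster was that of ZNF544, from 46.0, 42.9 and 37.1 CPM to 25.4, 23.3 and 25 CPM (log2 fold change -0.78, standard error 0.06, adjusted p = 4.17e-21 by edgeR). ZNF787, ZNF444 and ZNF542P were a run of 3 lower neighbours, with log2 fold changes from -0.36 to -0.26. ZNF274, which recruits SETDB1 to the ends of zinc finger genes and was picked for that role after its values were seen, had 40.4, 39.0 and 38.9 CPM in control and 32.6, 29.2 and 30.4 CPM in OC2-OE. Its groups did not overlap, and the log2 fold change was -0.36 (standard error 0.06, adjusted p = 1.33e-08 by edgeR).

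For the 3 remaining clusters the shares over all tested genes were again 27.8% higher and 28.7% lower. From ZNF557 to ZNF846, 3 of 12 tested members were higher (25%) and none lower, led by ZNF414, which rose from 8.39 ± 1.28 to 12.8 ± 0.778 CPM (SD, n = 3, log2 fold change 0.61). From ZNF653 to ZNF791, 1 of 23 was higher (4.35%), ZNF627, which rose from 7.11 ± 0.325 to 10.7 ± 1.01 CPM (SD, n = 3, log2 fold change 0.58), and 2 were lower (8.70%), ZNF44 and ZNF443. The call of ZNF443 (log2 fold change -0.58, adjusted p = 0.000371 by edgeR), whose log2 fold change stayed between -0.67 and -0.49 in all alternatives, was lost without control replicate 1 (adjusted p = 0.00442), control replicate 2 (0.00207), OC2-OE replicate 2 (0.00142) or OC2-OE replicate 3 (0.00848 by edgeR), and also with library size only (0.00118) and DESeq2 (0.00570). Of its 75-base words 26.6% also occur in transcripts of another gene.

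From ZNF575 to ZNF296, 3 of 24 tested members were higher (12.5%, against 27.8% of all tested genes) and 2 lower (8.33%, against 28.7%). ZNF224, a repressor known from the aldolase A gene, had 37.7, 37.0 and 33.2 CPM in control and 51.4, 50.4 and 53.7 CPM in OC2-OE (log2 fold change 0.52, standard error 0.05, adjusted p = 9.77e-17 by edgeR). ZNF229 had 14.5, 14.2 and 14.3 CPM in control and 9.55, 9.87 and 8.89 CPM in OC2-OE (log2 fold change -0.60, standard error 0.09, adjusted p = 8.53e-09 by edgeR). The groups of both stood apart, in opposite directions. ZNF575 had the largest rise of the tested members (log2 fold change 1.12, standard error 0.29, adjusted p = 0.000331 by edgeR) on only 44 counts in control and 102 in OC2-OE, and was picked after its values were seen.

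ZNF30, in the cluster from ZNF807P to ZNF792 (chr19:34542462-34964229), had 34.8, 34.1 and 33.1 CPM in control and 17.4, 16.7 and 17.9 CPM in OC2-OE. No library of a group came near the other, and the log2 fold change was -0.97 (standard error 0.07, adjusted p = 2.37e-27 by edgeR). Its tested neighbours of the cluster were not called.

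Calls of neighbours are given as a description, with no share for pairs of other genes beside them. Of 209 pairs of consecutive tested members within a cluster, 28 had both called, 16 of them both lower, 9 both higher and 3 opposite. Of the 28, 9 lay in the ZNF101 to ZNF254 cluster, where 17 of the 18 called members were lower and pairs both lower follow from that. Of the tested members, 47 had over 10% of their 75-base words or exon length shared with another gene, and the part of this in the neighbours' directions was not tested.

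The share of members with the KRAB pattern differed by direction. Of the members that rose, 17 of 31 carried it (54.8%), of those that fell 40 of 47 with a coding sequence (85.1%) and of those not called 116 of 142 (81.7%). Seen from the other side, 173 tested members with the pattern had 17 higher (9.83%) and 40 lower (23.1%) and a median log2 fold change of -0.03, and 47 without it had 14 higher (29.8%) and 7 lower (14.9%) and a median of 0.10. Of all tested genes 27.8% were higher and 28.7% lower, so the rises without the pattern stood near that share and the falls with it below. Outside the ZNF101 to ZNF254 cluster the members with the pattern had 16 higher and 25 lower of 147, with a median of 0.00. Promoters of members that rose had a median of 24 CpG dinucleotides, those of members that fell 17 and those of members not called 20. Outside the ZNF101 to ZNF254 cluster these medians were 25, 23 and 21, so the order of the last 2 groups turned.

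Zinc finger genes of chromosome 19 with other symbols were taken from a list of 17, of which 16 were found in the table and 10 tested. ZFP14 (log2 fold change 0.78), ZSCAN18 (0.63) and ZFP28 (0.58) rose and ZIK1 (-0.69) and ZFP30 (-0.20) fell, with a median over the 10 of 0.00. Among all tested genes 56.5% changed, so 5 of 10 is near that share. ZFP82, ZSCAN5A, ZSCAN22, ZBTB7A and ZBTB45 did not pass the test. PEG3, ZIM2, ZIM3, ZSCAN1 and ZBTB32 had 0 counts in all libraries.

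Corepressor genes through which KRAB proteins act were all expressed, and 11 of the 15 listed changed, 3 higher and 8 lower, with a median log2 fold change of -0.18. Of all tested genes 56.5% changed, 27.8% higher and 28.7% lower. TRIM28, the scaffold bound by the KRAB domain, fell from 620 ± 7.26 to 537 ± 12 CPM (SD, n = 3, log2 fold change -0.21, adjusted p = 5.71e-16 by edgeR). SETDB1, the methyltransferase, went from 70.2 ± 1.14 to 75.8 ± 3.71 CPM and did not pass (log2 fold change 0.11, adjusted p = 0.0118 by edgeR), while its partner ATF7IP fell (-0.22). Of the HP1 genes, CBX3 (log2 fold change -0.25) and CBX1 (-0.18) fell and CBX5 (-0.04) did not pass.

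Among genes of the NuRD complex the paralogs went apart, CHD3 rising from 285 ± 4.40 to 441 ± 2.25 CPM (SD, n = 3, log2 fold change 0.63) and CHD4 falling (-0.22), with falls of HDAC2 (-0.45) and HDAC1 (-0.21). The remodeller SMARCAD1 fell (-0.41). In the HUSH complex MPHOSPH8 (log2 fold change 0.30) and PPHLN1 (0.24) rose and TASOR (-0.15) did not pass, nor did MORC2 (-0.03).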

How the data were processed

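RNA-Seq libraries of DMS53 cells, 3 control and 3 OC2-OE by their titles, were analysed. The authors made stranded poly(A) libraries, aligned the reads with STAR version 2.7.9a and counted read pairs on the exons of GENCODE release 42 genes (GRCh38) with featureCounts version 1.6.0, as named in the submitters' processing notes and the file headers. The deposited values are raw counts, not normalized. Per the file headers, read pairs and strand were used, and no option that counts multi-mapping reads or reads over several genes was set, which lowers values of members with close copies.

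Libraries held 16533284 to 19099337 counts, and few counts limit the precision of low genes. All genes were fitted together with edgeR version 4.0.16 in R version 4.3.3 (TMM, filterByExpr, robust quasi-likelihood test, no replicate term), with Benjamini-Hochberg adjustment and the study's threshold of 0.001. Standard errors (SE) were taken as |log2 fold change| over the root of F. P-values measure the spread between the libraries of a group, and within groups it was 1.32 to 2.07 times the sampling variance. FPKM is CPM per kilobase of the length in the files. The steps were tested on simulated data.

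Ensembl identifiers gave a symbol for 62672 of 62696 genes, and for 2 members with a second identifier the one with more counts was used. Fingers, the KRAB pattern and GC content came from GENCODE release 29 transcripts, promoters from RefSeq (GRCh38.p14), matched by symbol for 216 of 263 members.

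Named are the 10 members with the largest rises and the 10 with the largest falls among those called without overlap and with a mean log2 CPM of at least 1.0, the 5 highest in FPKM (mean of both groups), the top rise and fall of each cluster, and the list genes. Others are said to be picked after their values were seen, or are named only in counts, runs and clusters. Members and lists were chosen with earlier results of these data known. Alternatives were other normalizations (DESeq2 size factors, library size, upper quartile), DESeq2 version 1.42.0, limma voom (version 3.58.1), other filters, thresholds and cluster gaps, a replicate block, each library left out, and ONECUT2, pseudogenes or members with shared sequence left out.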

Additional observations from a re-analysis of the deposited data

How the results depend on the processing

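The count of called members, 79, lay between 60 and 81 under the other normalizations, tests and filters, with 31 higher and 48 lower becoming 38 and 43 with library size only and 21 and 39 with DESeq2. Leaving out each library in turn gave 65 to 74 called, 24 to 30 higher and 41 to 46 lower. With the replicate number as a replicate block, 78 were called, and the numbers do not pair the libraries (correlations of deviations of 0.0011, 0.0257 and 0.0205 for numbers 1, 2 and 3). An adjusted p under 0.05 gave 119 called and 50 higher. A minimum absolute log2 fold change of 1.0 gave 5 called, 1 higher and 4 lower. The median log2 fold change, -0.02, moved to 0.03 with library size only (0.0345) and with upper-quartile normalization (0.0266), to -0.01 without members that share sequence or exons (-0.00567, an alternative chosen after seeing the data), and between -0.03 and 0.00 without each library in turn (-0.0262 to 0.00375). Its sign thus depends on the scaling and on control replicate 1, without which it was 0.00 (0.00375), and no member named by the rule changed direction. In the ZNF101 to ZNF254 cluster 15 to 18 members were lower in every alternative at an adjusted p under 0.001 without a minimum fold. A gap of 0.5 Mb gave 10 clusters and a gap of 2.0 Mb gave 6, with 18 called in that cluster. Few counts limit low members such as ZNF575.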
